A study of Glycyrrhiza uralensis with 30 samples.

Results

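Shoots and roots of *Glycyrrhiza uralensis*, a licorice, were compared after 12 h of simulated drought. The comparison rests on 6 of the 30 libraries of the series, chosen by their sample descriptions: 3 of aboveground parts (stems and leaves, called shoots here) and 3 of underground parts (roots), all labelled as drought stress of 12 h. The libraries are numbered 7, 8 and 9 in both parts. The seedlings of both groups were grown hydroponically and received polyethylene glycol 6000 (PEG) at 100 g/L in MS nutrient solution, and are labelled as 60 days old. The other groups used here are the same parts at 0, 2, 6 and 24 h, with 3 libraries each. The 0 h group is labelled as distilled water, so that time, PEG and medium differ together between 12 h and 0 h. No cultivar, genotype or pooling of plants is given in the labels, and whether replicate libraries stand for different plants is not stated. The p-values therefore cover the spread between libraries only, and part of it may be technical. For differences between the parts, that spread was estimated over all 30 libraries of the series, not over the 6 alone.

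PEG is a large polymer; dissolved in the medium it brings the water potential around the roots down and so hinders the uptake of water. Leaves carry out photosynthesis and lose water through their stomata, while roots take up water and ions, and those of licorice also store triterpenoid saponins such as glycyrrhizin. Under water deficit the hormone abscisic acid closes stomata in leaves and changes transcription in both organs. The files list genes by identifier alone, without names, so the tissue labels could not be checked against marker genes such as those of photosynthesis. For the same reason 4 genes are given by identifier, without a role, and the rest as groups.

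Values are TPM, transcript abundances that the authors scaled within each library, for 34445 genes. The depth behind each value is unknown, because TPM does not retain it. At 12 h, the shoot libraries had 21252, 21020 and 21776 genes at 1 TPM or more, against 20678, 20768 and 20566 in the root libraries. The groups did not overlap, and the means were 21349 ± 387 and 20671 ± 101 genes (SD, n = 3 each; exact permutation test, two-sided, p = 0.1, the smallest p that 3 against 3 allows). The 10 most abundant genes of a library held 8.71%, 8.97% and 9.79% in shoots, against 8.48%, 8.51% and 13.3% in roots. Library 9 of roots was the highest of the 6 in this share, and the groups overlapped (exact permutation test, two-sided, p = 1). Across tested genes, log2(TPM + 1) correlated at r = 0.90 to 0.92 between shoot libraries, 0.92 to 0.93 between root libraries, and 0.64 to 0.70 between a shoot and a root library. The median SD of a gene within its group was 0.34 in shoots and 0.27 in roots on the log2(TPM + 1) scale. Shoot and root libraries of the same number deviated together from their group means (r = 0.31 to 0.33 at 12 h). The main tests below leave this pairing out, so their 3 against 3 libraries are not independent of each other.

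The first question was which genes differed between shoots and roots at 12 h of PEG. Of 25420 genes tested with limma, 4480 were higher in shoots and 4459 higher in roots (Benjamini-Hochberg adjusted p under 0.05), which is 17.6% and 17.5% of the tested genes. A fit on the 6 libraries of 12 h alone called 4200 and 4447 genes, and 3893 and 3878 of them were among the former. A fit with the library number as a block called 4786 and 4772, with 4357 and 4246 among them. Differences are given as shoot minus root, in mean log2(TPM + 1). In whole organs, fewer cells that express a gene and less of its RNA per cell cannot be told apart. As deposited, the 2 directions were nearly equal in number but not in size. The numbers shifted with the scaling, to 4892 and 4112 with median-ratio and 4233 and 5512 with quantile scaling. At least 2-fold differences were called for 3771 genes higher in shoots and 3067 higher in roots, and at least 8-fold differences for 1205 (4.74%) and 651 (2.56%) genes. The 2-fold counts were 3949 and 2762 with median-ratio and 3502 and 3544 with quantile scaling, where the excess of shoots was absent. The 8-fold counts were 1221 and 586 with median-ratio and 1167 and 709 with quantile scaling. In 96.5% of the genes called higher in shoots and 96.8% of those called higher in roots, the 3 libraries of one part did not overlap with the 3 of the other. Without overlap but with or without a call, 5724 tested genes (22.5%) lay higher in shoots and 6485 (25.5%) higher in roots. The 8-fold counts depend on the pseudocount: with 0.1 in place of 1 they were 1992 and 1145, since low genes then show larger folds.

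**Figure D1:**
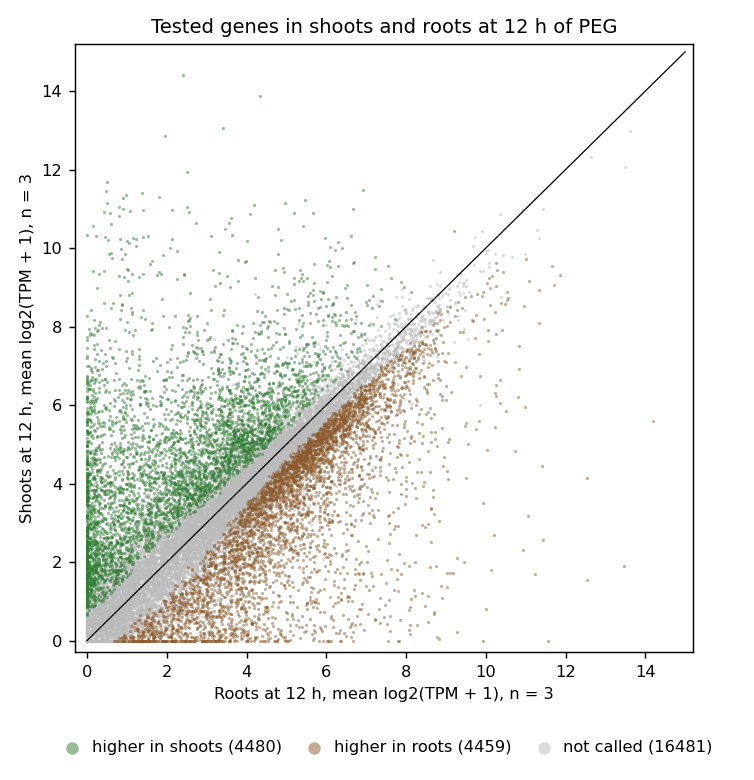
Mean log2(TPM + 1) of each tested gene in shoots (vertical axis) and roots (horizontal axis) at 12 h, 3 libraries each. Each point is a gene, coloured by its call, and the line marks equal levels; 4480 genes lie called on the shoot side and 4459 on the root side, and the points of the shoot side reach high levels where roots are near 0.

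The share of called genes and the balance of the parts went with the level of the genes. Among the 1693 genes with a mean over 100 TPM across the 6 libraries, 401 were higher in shoots and 569 in roots, 23.7% and 33.6%. In the 5226 genes with a mean from 1 to 5 TPM, 909 were higher in shoots and 611 in roots, 17.4% and 11.7%. At 5 to 20 TPM the counts were 1497 and 1272 of 8325, and at 20 to 100 TPM they were 1536 and 1919 of 7586. Under 1 TPM, 137 and 88 of 2590 genes were called. Low TPM values carry more counting error, to an extent that these values do not show.

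The overlap of the most abundant genes of the parts depended on how many were taken. Of the 10 with the highest mean TPM in shoots and the 10 in roots, 3 were the same, of the 100 highest 19 were the same, and of the 1000 highest 499. The 100 highest of shoots had a median of 1320 TPM in shoots and 11.2 TPM in roots, with 80 called higher in shoots and 1 higher in roots. Those of roots were spread otherwise: their medians were 356 TPM in shoots and 1252 TPM in roots, with 72 called higher in roots and 0 higher in shoots. These genes were picked for their level in a part, so their direction is a description. Among the 100 highest, the root genes thus had the larger median in the other part. This did not hold for the 1000 highest, where those of shoots had a median of 152.9 TPM in roots and those of roots a median of 147.8 TPM in shoots.

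Glyur000604s00024572 had the largest shoot excess among called genes without overlap and with at least 10 TPM in the higher part. It was at 25629, 23924 and 16499 TPM in shoot libraries 7, 8 and 9, against 21.64, 0.20 and 4.51 TPM in root libraries 7, 8 and 9. Every shoot library was far above every root library, and the root libraries differed widely among themselves. The means were 22017 ± 4855 TPM in shoots and 8.78 ± 11.3 TPM in roots (SD, n = 3 each), a log2 difference of 11.99 (SE 1.48, limma adjusted p = 5.91e-07). In shoots its group means at the other times were 18203 ± 4729 TPM at 0 h, 10320 ± 4126 at 2 h, 13691 ± 3527 at 6 h, then 24111 ± 11454 at 24 h (SD, n = 3 each).

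Glyur001944s00035546 had the largest root excess by the same rule. Its level was 5.87, 0.38 and 4.35 TPM in shoot libraries 7, 8 and 9, against 17478, 3216 and 25765 TPM in root libraries 7, 8 and 9. Root library 8 was the lowest of the 3 but still far above every shoot library. The means were 3.53 ± 2.83 TPM in shoots and 15486 ± 11406 TPM in roots (SD, n = 3 each), a log2 difference of -11.58 (SE 0.97, limma adjusted p = 1.10e-09). In roots it averaged 14323 ± 9364 TPM at 0 h, 5201 ± 2638 at 2 h, 11051 ± 5610 at 6 h, then 2901 ± 1904 at 24 h (SD, n = 3 each). For neither of these genes did the part difference at 12 h pass the test against that at 0 h (limma adjusted p = 1 for both).

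**Figure D2:**
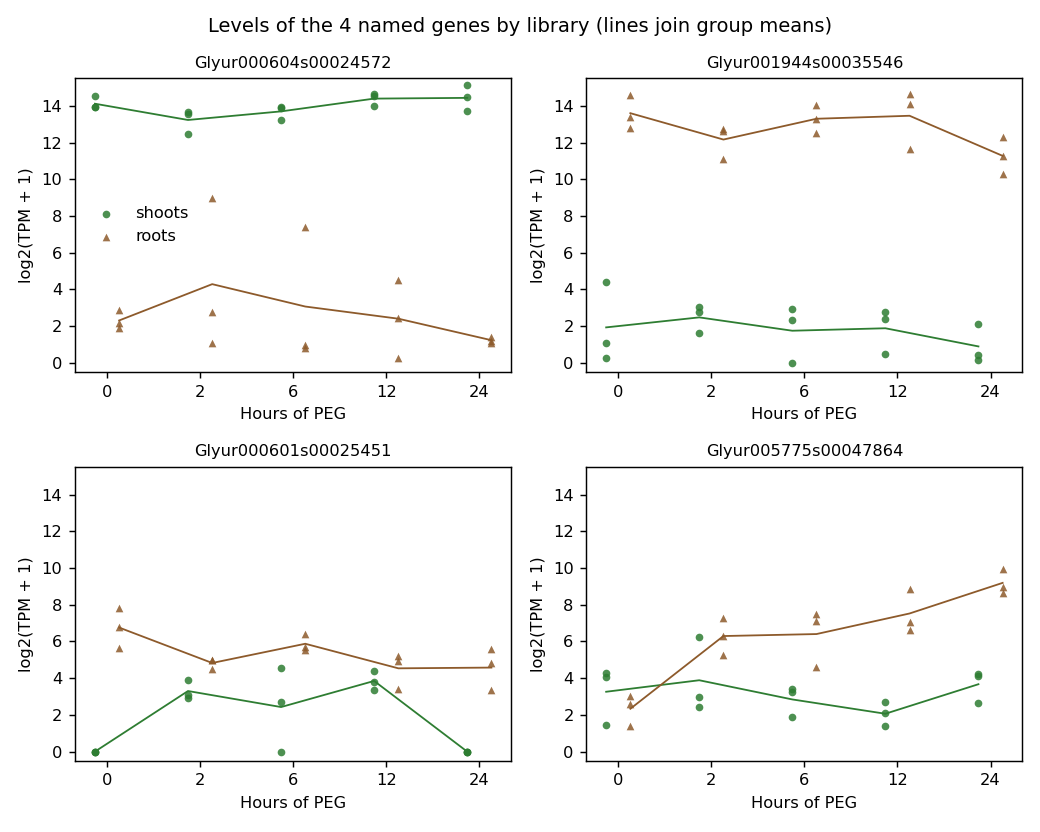
log2(TPM + 1) of the 4 named genes in each library, by hours of PEG (circles, shoots; triangles, roots; lines join the means of the 3 libraries of a group). The upper genes keep a wide distance between the parts at every time, while the parts overlap at 12 h for Glyur000601s00025451 and at 0 and 2 h for Glyur005775s00047864.

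The second of these genes was the first of 11 identifiers in the files that begin with Glyur001944 and go on with a running number. What this prefix stands for is not given in the sources used here. Its neighbours were looked at after the gene's value was seen, as were those of the other named genes. Of 11 tested genes with the prefix Glyur000604, 2 were higher in shoots and 2 in roots, of 14 with Glyur000601, 3 and 4, and Glyur005775 had no other gene. All 9 tested genes with this prefix were higher in roots at 12 h, where 17.5% of all tested genes were, and 8 of them by at least 8-fold; the 9 include the gene chosen for its root excess. Their part differences ranged from -11.58 to -1.02, with a median of -7.84. Summed over the 9 genes, the level was 14.19, 10.13 and 20.31 TPM in shoot libraries 7, 8 and 9, against 32811, 6690 and 47959 TPM in root libraries 7, 8 and 9. These 9 genes thus held 3.43%, 0.695% and 5.00% of the summed TPM of the root libraries, and root library 8 was the lowest of the 3. At 0, 2, 6 and 24 h, 8, 6, 7 and 6 of the 9 were called higher in roots and 0 higher in shoots. How the authors assigned reads that fit several genes is not given. Whether the genes of this run share such reads could not be checked, so the level of each single gene remains uncertain.

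**Figure D3:**
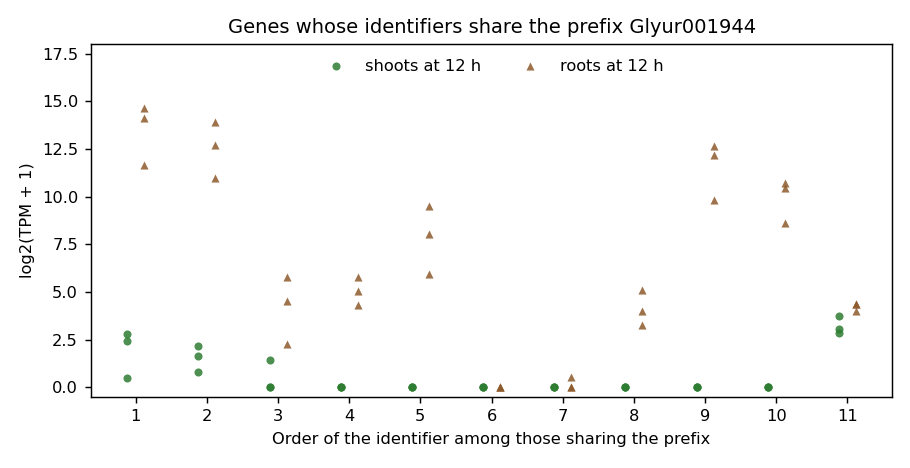
log2(TPM + 1) at 12 h of the 11 genes whose identifiers share the prefix Glyur001944, in the order of their running numbers (circles, shoots; triangles, roots; 3 libraries each). Root libraries lie above shoot libraries for 9 genes, and the 2 untested genes lie at or near 0 in both parts.

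The same look at neighbours was taken over the whole table, as a description. Of 3036 genes called higher in shoots whose next listed identifier had the same prefix and was tested, 23.2% had a next gene also called higher in shoots, while 18.0% of all 17050 next genes were. Among 3130 genes called higher in roots, 24.4% had a next gene also higher in roots, beside 18.0% of all next genes. For differences of at least 8-fold, 8.85% of 825 such shoot genes and 12.8% of 439 such root genes were followed by another of the same kind, beside 4.74% and 2.53% of all next genes. Genes in a list are not independent, and no test was made of these shares.

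Some genes were listed in a single part at 12 h. At least 1 TPM in all 3 shoot libraries and 0 in all 3 root libraries held for 230 genes, and the reverse, at least 1 TPM in roots and 0 in shoots, for 105. With at least 5 TPM these counts were 112 and 41, and with at least 100 TPM they were 6 and 3. The highest group mean was 1477 TPM among the shoot genes and 4003 TPM among the root genes. For few of them did the listing at 0 extend to all times: 29 of the 230 were at 0 in all 15 root libraries of the series, and 15 of the 105 in all 15 shoot libraries. Limma called 224 of the 230 as higher in shoots and 102 of the 105 as higher in roots, a direction that their choice fixed.

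The part difference at 12 h was then set beside those at the other times, which share no library with it. Higher in shoots were 4291 genes at 0 h, 4220 at 2 h, 4006 at 6 h, then 4480 at 12 h and 4007 at 24 h, and higher in roots were 5003, 5421, 5958, 4459 and 7283. As shares of tested genes these are 16.9%, 16.6%, 15.8%, 17.6% and 15.8% for shoots, and 19.7%, 21.3%, 23.4%, 17.5% and 28.7% for roots. Thus 12 h had about as many shoot as root genes, and the smallest number of calls of the 5 times (8939, or 35.2% of tested genes, beside 36.6% at 0 h, 37.9% at 2 h, 39.2% at 6 h, then 44.4% at 24 h). Much of this change in balance over the times went away with either scaling, but which part had more calls depended on the scaling. After median-ratio rescaling, higher in shoots were 4966, 5164, 5053, 4892 and 5469 genes in the order of the times, and higher in roots 4364, 4677, 4631, 4112 and 4555. The share of calls higher in shoots went over 50% at every time then, 54.3% at 12 h and 54.6% at 24 h, where the deposited values gave 50.1% and 35.5%. With quantile scaling this share stayed under 50% at every time, 44.0%, 44.4%, 45.2%, 43.4% and 41.7% in the order of the times. At 24 h, quantile scaling gave 4549 genes higher in shoots and 6363 higher in roots. In median over the tested genes, the part difference stood at -0.10 (0 h), -0.13 (2 h), -0.19 (6 h), -0.041 (12 h) and -0.32 (24 h). Median-ratio rescaling brought the 12 h value to 0.014 and the others to 0.

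**Figure D4:**
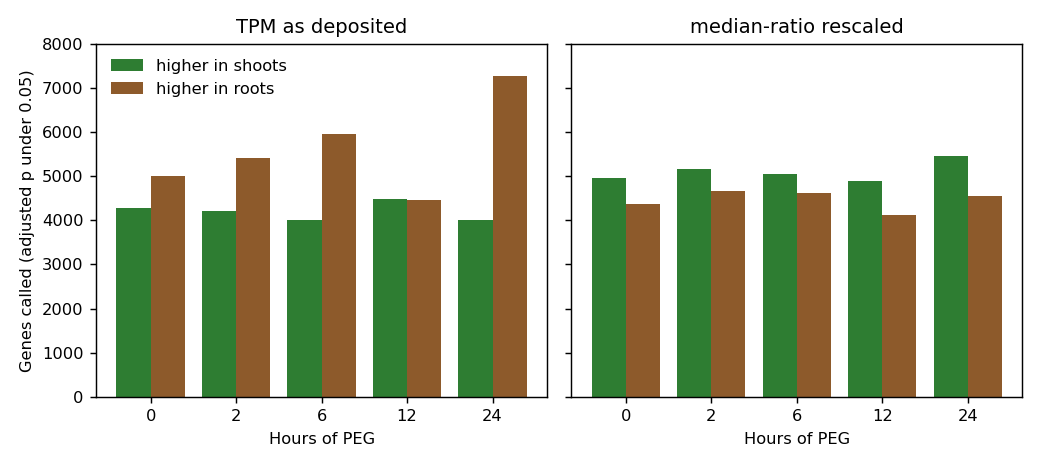
Genes called higher in shoots (green, left bar) and higher in roots (brown, right bar) at each time, from the deposited TPM (left panel) and after median-ratio rescaling (right panel). The 12 h bars are level in the left panel, with 4480 and 4459 genes, and the excess of root genes at 24 h (7283) is absent after median-ratio rescaling (4555). With quantile scaling, which is not drawn, 6363 genes were higher in roots at 24 h and 4549 in shoots.

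As deposited, most genes with a part difference at 12 h were called the same way at each single other time. Of all tested genes, 16.9%, 16.6%, 15.8% and 15.8% were higher in shoots at 0, 2, 6 and 24 h. Higher in roots were 19.7%, 21.3%, 23.4% and 28.7%. Of the 4480 shoot genes, 3405 (76.0%) were called higher in shoots at 0 h, 2855 (63.7%) at 2 h, 3213 (71.7%) at 6 h, then 2841 (63.4%) at 24 h. Counted from the other side, the shared genes made up 79.4%, 67.7%, 80.2% and 70.9% of the shoot genes of those times. Of the 4459 root genes, 3271 (73.4%) were called higher in roots at 0 h, 2762 (61.9%) at 2 h, 3593 (80.6%) at 6 h, then 3340 (74.9%) at 24 h, which is 65.4%, 50.95%, 60.3% and 45.9% of the root genes of those times. Higher in the same part at all 5 times were 2175 shoot genes (48.5% of those of 12 h) and 2021 root genes (45.3%). With median-ratio scaling these were 2549 and 1650 genes. Called at 12 h and at no other time in the same direction were 555 shoot genes and 287 root genes. For 11 and 17 of them the difference from the 0 h part difference itself passed the test. Of all tested genes, 0.228% and 0.559% passed it in these directions. Choosing genes called at 12 h and not alike at 0 h favours such a difference. Missing a call at another time does not show that the parts were alike then.

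As deposited, opposite calls numbered fewer at 0 h and 6 h than at 2 h and 24 h. Such calls were not counted after rescaling. Of all tested genes, 19.7%, 21.3%, 23.4% and 28.7% were called higher in roots at 0, 2, 6 and 24 h. Called higher in shoots were 16.9%, 16.6%, 15.8% and 15.8%. Of the 4480 shoot genes of 12 h, 6 were called higher in roots at 0 h, 62 at 2 h, 8 at 6 h, then 76 at 24 h. Of the 4459 root genes, 20 were called higher in shoots at 0 h, 103 at 2 h, 7 at 6 h, then 61 at 24 h. The median part difference of the shoot genes was 1.93 at 12 h, by choice, and 1.71, 1.40, 1.60 and 1.44 at 0, 2, 6 and 24 h. That of the root genes was -1.39 at 12 h and -1.21, -1.04, -1.34 and -1.31 at 0, 2, 6 and 24 h. Choosing genes at 12 h favours the widest medians at 12 h, so no narrowing at the other times is read from them.

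Genes with a strong part difference before treatment were followed to 12 h. In the 6 libraries of 0 h, 1161 genes were at least 8-fold higher in shoots without overlap and 645 were at least 8-fold higher in roots. The libraries of 12 h took no part in this choice. At 12 h, 1101 of the 1161 (94.8%) were called higher in shoots and 2 higher in roots, where 17.6% of all tested genes were called higher in shoots. Of the 645, 588 (91.2%) were called higher in roots and 1 higher in shoots, where 17.5% of all tested genes were called higher in roots. The median part difference of the shoot group was 4.10 at 12 h, against 4.11 at 0 h. In the root group it was -3.49 at 12 h, against -3.88 at 0 h, and 404 of 645 still reached 8-fold; choosing genes on their 0 h values favours a smaller difference at any other time.

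The groups took up very unequal shares of the RNA pool. The 1161 shoot genes held 29.3%, 32.6% and 26.7% of the summed TPM in shoot libraries 7, 8 and 9 of 12 h, against 0.724%, 0.667% and 0.745% in root libraries 7, 8 and 9. The 645 root genes held 0.774%, 0.637% and 0.733% in the shoot libraries of 12 h, against 15.9%, 14.5% and 19.3% in the root libraries. The parts did not overlap for either group. In the other part these genes were low but mostly not at 0: the root genes had a median of 2.11, 1.73 and 2.88 TPM in shoot libraries 7, 8 and 9 of 12 h, against 46.8, 53.4 and 52.0 TPM in the root libraries. At 0 h their medians in the 3 shoot controls, numbered 31, 32 and 33, were 0.84, 1.07 and 2.41 TPM, so that control 33 lay within the range of 12 h and the other controls below it. The choice of these genes favours low values in those controls, so no rise in shoots is read from this. The 1161 shoot genes had medians of 0.89, 0.92 and 1.30 TPM in root controls 31, 32 and 33. In root libraries 7, 8 and 9 of 12 h these were 1.11, 0.89 and 1.07 TPM. Whether RNA of the other part contributes to these low values was not tested.

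The last question was whether the part difference at 12 h departed from that at 0 h, tested as the difference between the 2 part differences. It did for 200 genes (0.787% of tested genes; limma adjusted p under 0.05): 58 moved towards shoots (0.228%) and 142 towards roots (0.559%), and each of the 200 moved at least 2-fold. Of the 142, 35 had no called part difference at 0 h and were higher in roots at 12 h, 34 were higher in shoots at both times but less so at 12 h, 34 were higher in shoots at 0 h and not called at 12 h, 20 were higher in roots at both times, and 19 went over from shoots to roots. Of the 58, 17 were not called at 0 h and higher in shoots at 12 h, 16 were higher in shoots at both times, 15 were higher in roots at 0 h and not called at 12 h, 5 were higher in roots at both times, and 5 went over from roots to shoots. These counts depended on single libraries, also because fewer libraries then remained. The 58 became 36 without shoot library 8 of 12 h, 32 or 33 without root library 8 or 9 of 12 h, 36 without shoot control 31 and 30 without root control 33. The 142 became 92 without shoot library 7 of 12 h, 85 without root library 9 of 12 h, 91 without shoot control 32, and 85 or 76 without root control 31 or 33. With a pseudocount of 0.1 the counts were 37 and 85. With the library number as a block they were 72 and 150, of which 44 and 116 were among the 58 and the 142; the others of the 58 and the 142 lost their call.

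**Figure D5:**
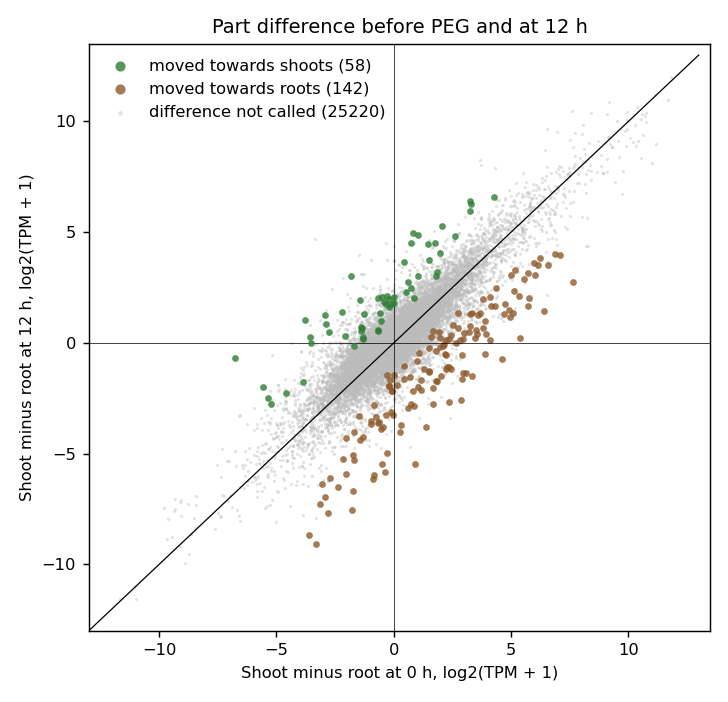
Part difference (shoot minus root, mean log2(TPM + 1), n = 3 each) of each tested gene at 12 h (vertical axis) and at 0 h (horizontal axis), with the line of equal differences. The 58 genes that moved towards shoots lie above the line and the 142 that moved towards roots below it; 25220 genes were not called.

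Both parts contributed to these moves. Among the 142 genes that moved towards roots, 71 rose in roots from 0 h to 12 h without a call in shoots, 53 fell in shoots without a call in roots, and 18 were called in neither part, in tests within each part. Among the 58 that moved towards shoots, 23 fell in roots without a call in shoots, 14 rose in shoots without a call in roots, 3 fell in both and 18 were called in neither. Over all tested genes, 0.234% rose and 0.633% fell in shoots, and 1.36% rose and 0.961% fell in roots. The tests within a part use the same libraries as the difference, so they describe the moves and do not support them.

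The 142 genes, chosen on the libraries of 0 h and 12 h, changed places between the parts in their median level. Their median log2(TPM + 1) at 12 h was 2.78, 3.00 and 3.47 in shoot libraries 7, 8 and 9, against 4.52, 4.54 and 4.84 in root libraries 7, 8 and 9. At 0 h it was 4.72, 5.03 and 4.68 in shoot controls 31, 32 and 33, against 2.04, 2.70 and 2.11 in root controls 31, 32 and 33. At each time the parts did not overlap, and the higher part was roots at 12 h and shoots at 0 h. The choice of the genes on these same libraries favours this, so it is a description. The 58 showed the mirror image, with 4.91, 5.15 and 5.00 in shoot libraries and 2.92, 2.48 and 2.86 in root libraries of 12 h, and 3.54, 3.71 and 3.65 in shoot controls and 4.61, 4.79 and 4.55 in root controls. The median part difference of the 142 was 1.95 at 0 h, 0.79 at 2 h, 0.43 at 6 h, then -1.17 at 12 h and 0.63 at 24 h, and that of the 58 was -0.45, 0.42, 0.01, 1.82 and 0.39. Genes chosen for a move between 0 h and 12 h tend to lie between these values at other times, so nothing is read from the medians of 2, 6 and 24 h.

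Of the 20 genes called higher in shoots at 0 h and higher in roots at 12 h, the move itself passed the test for 19. These 19 genes were called in either direction at the other times. Their median part difference was 1.86 at 0 h, 0.10 at 2 h, 0.28 at 6 h, then -1.51 at 12 h and 0.04 at 24 h, and at 2, 6 and 24 h 6, 5 and 4 of them were called higher in shoots and 4, 1 and 4 higher in roots. In shoots, the median of their group means in log2(TPM + 1) was 5.63 at 0 h, 6.93 at 2 h, 5.68 at 6 h, then 3.26 at 12 h and 6.84 at 24 h. In roots it was 2.72, 6.07, 4.12, 4.88 and 5.04 at these times. The choice of these genes favours a low shoot level at 12 h and a low root level at 0 h, so no pattern over time is read from these medians.

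Glyur000601s00025451 moved furthest towards shoots among the called genes with at least 10 TPM in a group. It had 13.12, 20.05 and 9.10 TPM in shoot libraries 7, 8 and 9 of 12 h, against 36.23, 30.09 and 9.83 TPM in root libraries 7, 8 and 9. The parts overlapped at 12 h, with no called difference (-0.69, SE 0.75, limma adjusted p = 0.537). At 0 h it was listed at 0 in all 3 shoot controls, against 49.18, 109.9 and 227.3 TPM in the root controls, so no fold is given there. The difference between the part differences was 6.07 (SE 1.06, limma adjusted p = 0.00355), and 9.35 with a pseudocount of 0.1, since it depends on the pseudocount through the listings at 0. Within shoots the rise from 0 h passed the test (limma adjusted p = 0.0434), and within roots the difference of -2.22 did not (adjusted p = 0.0941). In shoots the gene was again listed at 0 in all 3 libraries of 24 h.

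Glyur005775s00047864 moved furthest towards roots by the same rule. It had 3.28, 1.64 and 5.46 TPM in shoot libraries 7, 8 and 9 of 12 h, against 133.7, 98.53 and 466.1 TPM in root libraries 7, 8 and 9. At 0 h it had 15.63, 18.35 and 1.74 TPM in the shoot controls, against 1.59, 7.24 and 5.02 TPM in the root controls. The parts lay wide apart at 12 h (-5.46, SE 0.92, limma adjusted p = 4.42e-05) and overlapped at 0 h (0.93, SE 0.92, adjusted p = 0.476). The difference between the part differences was -6.39 (SE 1.30, limma adjusted p = 0.0154), and its call was lost without shoot control 32 (adjusted p = 0.0511), root library 9 of 12 h (0.0603) or root control 31 (0.0568). Within roots it rose by 5.19 from 0 h to 12 h (SE 0.79, limma adjusted p = 0.00455), and within shoots the difference of -1.20 did not pass (adjusted p = 0.837). In roots it averaged 4.62 ± 2.85 TPM at 0 h, 90.4 ± 58.8 at 2 h, 112.6 ± 79.5 at 6 h, then 232.8 ± 202.8 at 12 h and 632.7 ± 319.7 at 24 h (SD, n = 3 each).

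Fewer genes departed from the part difference of 6 h than from those of 2 h and 24 h. The 12 h difference departed from the 2 h difference for 2049 genes (8.06%), from the 6 h difference for 78 (0.307%) and from the 24 h difference for 1844 (7.25%), in 3 tests that share the 12 h libraries. Against 2 h, 1051 genes (4.13%) moved towards shoots and 998 (3.93%) towards roots at 12 h, and 62 and 103 of them had opposite called directions at the 2 times; after median-ratio rescaling 1018 and 1270 moved, and after quantile scaling 1070 and 1301. Against 24 h, 1138 (4.48%) moved towards shoots and 706 (2.78%) towards roots, but after median-ratio rescaling 639 and 1114 did and after quantile scaling 855 and 1011, so the balance turned with the scaling. Median-ratio rescaling took the median move of all tested genes to 0.018, in place of 0.28 as deposited. Against 6 h, 22 (0.0865%) moved towards shoots and 56 (0.22%) towards roots, with 14 and 67 after median-ratio rescaling and 31 and 94 after quantile scaling. The share towards shoots was 28.2% as deposited, 17.3% with median-ratio and 24.8% with quantile scaling. The genes that moved towards roots against 24 h had a median log2(TPM + 1) in shoots of 3.77 at 12 h and 6.14 at 24 h, and in roots of 3.63 at 12 h and 3.58 at 24 h.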

How the data were processed

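The authors deposited 1 table of TPM per library, to 2 decimals, for the same 34445 genes, of which 4615 were at 0 in every library. Per the submitters' processing notes, the tools used were DESeq2, edgeR, fastp, HISAT2, RSEM and StringTie, with no version or role; the genome build is not given, nor are the gene models, in the labels used here. The deposited TPM were turned into log2(TPM + 1) and fitted with limma 3.58.1 (R 4.3.3), using moderated variances with a trend on the mean; p-values were adjusted by Benjamini-Hochberg over all genes tested, with a threshold of 0.05. A gene entered a fit when 3 or more of its libraries had 1 TPM or more. Part differences and the differences between them used all 30 libraries with 10 group means, and 12 h against 0 h within a part used its 15 libraries. Such a fold change understates the change of low genes. The fits were also run on simulated data whose libraries varied independently, so that run does not bear on libraries that deviate together.

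Named were, in each direction, the gene with the largest part difference at 12 h (called, no overlap, higher part averaging 10 TPM or more) and the gene whose part difference moved most from 0 h (called, a group mean of at least 10 TPM, not at 0 throughout a part). The members and lists were chosen with earlier results of these data known. Libraries of 2 parts with the same number in their titles deviated together from their group means. The r was 0.31 to 0.33 for the 3 pairs of 12 h and 0.29 to 0.35 for those of 0 h. At the other times it was 0.097 to 0.31. At every time, each shoot library correlated more with the root library of its number than with the other root libraries. The numbers were therefore taken to pair the libraries. A fit with the number as a block was an alternative, while the main fit left the pairing out. Figures were drawn with matplotlib 3.10.9.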

Additional observations from a re-analysis of the deposited data

Results flagged for a closer look

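The change from 0 h to 12 h differed between shoots and roots for 200 genes, by the test of the difference itself. The 2 genes named among them are Glyur000601s00025451, with a difference of 6.07 on the log2(TPM + 1) scale, and Glyur005775s00047864, with -6.39. In groups of 3 libraries, single libraries were not tested as outliers.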

How the results depend on the processing

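The counts of genes higher in shoots and higher in roots at 12 h stayed within 1.5 times under all 14 alternatives run, from 3897 to 4892 and from 3510 to 5512. The 8-fold counts moved with a pseudocount of 0.1, to 1992 and 1145. The counts of genes whose part difference moved from 0 h were 37 towards shoots and 85 towards roots with that pseudocount, and 30 to 67 and 76 to 126 with a library left out. Median-ratio scaling gave 14 genes towards shoots against 6 h, and 639 towards shoots and 1114 towards roots against 24 h. The cause of these moves was not tested. With the library number as a replicate block, 4786 and 4772 genes were higher in shoots and roots, 72 and 150 moved towards shoots and roots from 0 h (44 of the 58 and 116 of the 142 among them), and no call of a named gene changed. Quantile scaling gave 31 and 94 genes towards shoots and roots against 6 h. The part differences of Glyur000604s00024572 and Glyur001944s00035546 kept their calls in all 14 alternatives. On the 6 libraries of 12 h alone, their limma adjusted p was 0.000133 and 0.000118. Glyur000601s00025451 kept its call in all 20, with adjusted p from 0.0033 to 0.0189. For Glyur005775s00047864 the adjusted p ranged from 0.00553 to 0.0603, and 3 of the 20 lost the call. With a log2 difference of 2 in place of 3 as the limit, 89.6% and 82.4% of the genes biased to shoots and roots at 0 h were called alike at 12 h. Genes listed in shoots or roots alone numbered 112 and 41 at a minimum of 5 TPM. No read depth is known, so it cannot be said how far low values limit these calls.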

Other observations

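Runs of at least 3 listed genes of the same prefix, each at least 8-fold higher in the same part at 12 h, numbered 7 for shoots and 11 for roots, with 22 and 39 genes. In all, 1205 and 651 genes were called at least 8-fold higher. How many such runs the listing order alone would give was not worked out. The longest had 4 genes for shoots and 5 for roots. In the longest shoot run, with the prefix Glyur000841, the genes had a median of 73.6 TPM in shoots and 0.167 TPM in roots. Of the 3 root runs of 5 genes, that with the prefix Glyur000321 had 6.94 TPM in shoots and 388 TPM in roots, and that with Glyur000128 had 3.00 and 136 TPM. These runs were looked for after the values were seen, and no test was made of them.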
